A study of Rattus norvegicus with 10 samples.

Results

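Histone methyltransferases are enzymes that place methyl groups on histone tails, and the 9 genes described here encode such enzymes: Setd8 (named Kmt5a in newer annotations), Setd7, Setd2, Ehmt1, Ehmt2, Suv39h1, Setdb1, Ezh1 and Ezh2. They were chosen by name from the 17168 gene symbols measured, and Setd8 heads the group because it had been picked for its rise with low spread in the comparison reported here. Its difference between the groups is therefore given as a description without a test, and the other 8 genes were tested. Setd1a, an enzyme that methylates lysine 4 of histone H3 (H3K4), was also on the list of 10 names and was not analysed here.

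Methylation of histone lysines is read by other proteins, and its effect depends on the residue. H3K4 and H3K36 methylation mark active promoters and transcribed gene bodies, whereas H3K9 and H3K27 methylation mark silenced chromatin. Setd8 monomethylates lysine 20 of histone H4 (H4K20), a mark tied to chromatin compaction and the cell cycle, which Suv420h1 and Suv420h2 extend to the di- and trimethylated forms. In the hippocampus, several of these enzymes, among them the H3K9 methylating enzymes Ehmt1 and Ehmt2, are known for roles in memory and neuronal identity.

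The RNA of 10 female TgF344-AD rats, aged 11 months, was taken from the left hippocampus. The line carries human mutant APP and presenilin 1 transgenes under a prion promoter. The untreated group (5 animals) ate ordinary rodent chow, and the RG2833 group (5 animals) ate chow with 750 mg of RG2833 per kg for 6 months beginning at an age of 5 months. As a compound, RG2833 inhibits the histone deacetylases HDAC1 and HDAC3, and a blue food dye told the chows apart. Animals of both groups were put under ketamine and xylazine and perfused with PBS before dissection. No non-transgenic rats were analysed here. All 10 animals carry the transgenes, so the comparison is between treated and untreated transgenic rats, and it addresses what long-term RG2833 does to hippocampal transcripts.

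Total estimated counts ran from 8764266 to 11311673 per library. Markers of excitatory and inhibitory neurons, astrocytes, oligodendrocytes, their precursors, microglia and vessels were all present, 0 of these 40 at 0 in every library, as the tissue label implies. Some libraries stood apart. Choroid plexus markers summed to 2449.6 CPM (counts scaled to library size, here with TMM factors) in untreated replicate 1, against 6.20 to 46.3 CPM elsewhere. Untreated replicate 4 had a score of 11.5 on the first principal component, within the RG2833 range of 9.18 to 25.3, whereas the other untreated animals were between -27.8 and -13.8. Ribosomal RNA loci took 2.70% to 5.36% of counts in untreated and 1.13% to 1.96% in RG2833 animals, without overlap. The summed level of 6 excitatory neuron markers was 1494.7 to 2407.6 CPM without treatment and 2527.2 to 2954.04 CPM in RG2833 animals, also without overlap, although 0 of the 6 passed the test. Of the other marker genes, 2 passed, both lower in RG2833 animals, against 5.08% of all genes in either direction. The first was the microglial Aif1 (-0.74 on the log2 scale, adjusted p = 0.0496 by edgeR). The other was Prlr of the choroid plexus list (-0.86, adjusted p = 0.0394 by edgeR). Both were named after their values were seen. The rest of the microglial list did not pass and ran from -0.32 (Itgam) to 0.20 (Cx3cr1), with -0.03 for Csf1r. In bulk tissue, fewer cells of a type and less RNA per cell cannot be told apart.

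The promoter windows of Setd8 and Ezh2 are shown because these genes had the highest and the lowest log2 fold change of the 9. Each window holds 250 bases before and 50 after the transcription start, from RefSeq on GRCr8, a newer build than the rn6 build behind the counts. The Setd8 window is chr12:37817977-37818276 and the Ezh2 window chr4:77687134-77687433, both on the minus strand and printed 5′ to 3′ along the gene. Capitals mark matches, searched on either strand and not overlapping, to a motif known from many promoters that lack a TATA box and spelled GGGCGG (the GC box), to the E2F motif (TTTGGCGC), and to the box named after its letters, CCAAT.
Setd8: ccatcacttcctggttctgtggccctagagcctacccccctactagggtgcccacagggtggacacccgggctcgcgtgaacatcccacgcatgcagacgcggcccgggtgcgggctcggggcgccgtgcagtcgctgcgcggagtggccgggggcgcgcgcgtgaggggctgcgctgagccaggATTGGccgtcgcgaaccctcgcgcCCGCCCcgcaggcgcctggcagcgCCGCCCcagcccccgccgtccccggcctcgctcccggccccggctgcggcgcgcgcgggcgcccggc
Ezh2: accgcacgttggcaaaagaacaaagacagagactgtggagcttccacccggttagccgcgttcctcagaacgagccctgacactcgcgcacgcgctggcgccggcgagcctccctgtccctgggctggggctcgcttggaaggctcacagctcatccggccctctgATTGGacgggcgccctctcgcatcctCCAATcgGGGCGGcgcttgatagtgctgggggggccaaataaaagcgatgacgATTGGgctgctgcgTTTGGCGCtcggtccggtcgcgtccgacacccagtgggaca

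The Setd8 window was rich in CpG dinucleotides, with 43 of them, more than 97.9% of the 33469 windows in the table, whose median was 7. It held 2 GC boxes, at -41 and -17 bases from the start, and 1 CCAAT box at -65, all on the opposite strand. The Ezh2 window held 30 CpG, more than 89.7% of windows, with 3 CCAAT boxes at -84, -58 and -5, 1 GC box at -51 and 1 E2F match at 9. Of all windows, 33.1% had a GC box, 37.5% a CCAAT box and 0.493% the E2F motif. Windows were found for 7 of the 9 genes, and Setd7 and Ezh1 had none. GC boxes also lay in the windows of Setd2 (5), Ehmt1 (3) and Ehmt2 (5), and the Setdb1 window had neither a GC box nor a CCAAT box. The 2 alternative Suv39h1 windows held 17 and 30 CpG, 0 and 1 GC boxes, and 2 and 1 CCAAT boxes, in that order. These matches describe letters in a window and say nothing of which factors bind there.

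Setd8 transcripts were about 1.5 times as abundant in the RG2833 group. In untreated animals Setd8 was 25.3, 23.9, 23.9, 28.9 and 23.1 CPM in replicates 1 to 5 (CPM after TMM scaling, which sets libraries to a common level on the premise that few genes differ). In RG2833 animals it was 37.8, 38.1, 38.3, 38.3 and 38.2 CPM. Every RG2833 animal lay above every untreated animal, and the gap of 8.83 CPM between the groups exceeded the range of 5.89 CPM among untreated animals. The highest untreated value belonged to replicate 4. The underlying estimated counts were 218 to 311 in untreated and 365 to 427 in RG2833 libraries. Means with SD over 5 animals were 25.01 ± 2.34 CPM untreated and 38.1 ± 0.223 CPM with RG2833, a fold change of 1.52 and a log2 fold change of 0.61 ± 0.08 (SE of the edgeR fit). Among all 11791 genes tested, 3.8% had non-overlapping groups with RG2833 higher and 3.47% with RG2833 lower, which is given as background only, because Setd8 was picked from this contrast. Without untreated replicate 4 the Setd8 log2 fold change was 0.67 ± 0.07, and without untreated replicate 1 it was 0.61 ± 0.08. With the percentage at ribosomal RNA loci in the model it was 0.47 ± 0.15, and the part of the excitatory neuron markers in the difference was not tested.

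**Figure D1:**
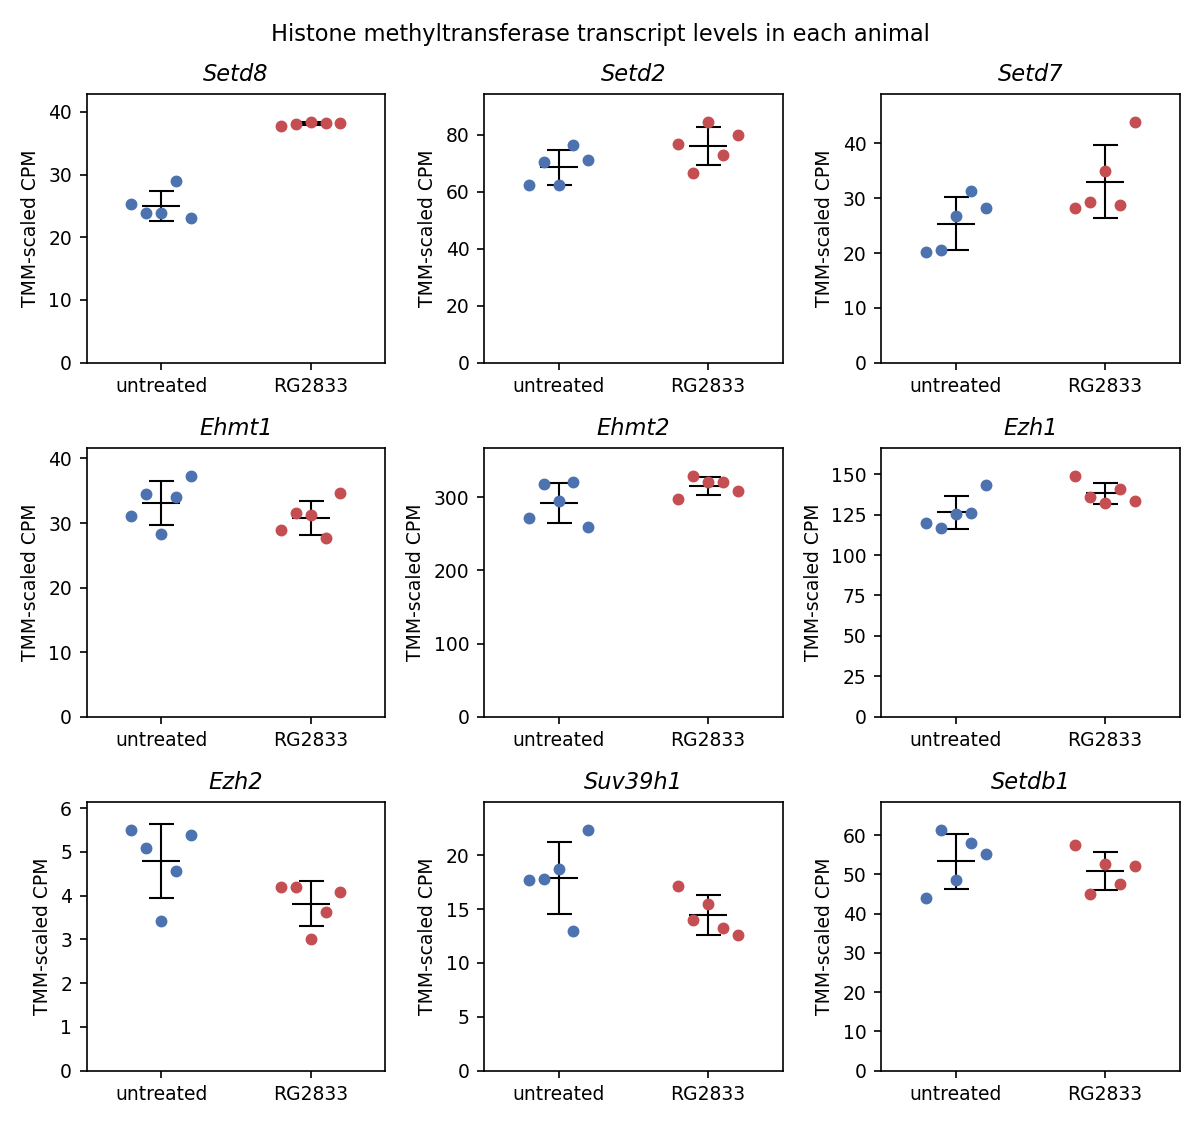
TMM-scaled CPM (vertical axes, from 0) of each of the 9 genes in 5 untreated animals (blue points) and 5 RG2833 animals (red points), with replicates 1 to 5 from left to right and the mean and SD in black. For Setd8 the RG2833 points sit between 37.8 and 38.3 CPM, above all untreated points, while the groups overlap in the other 8 panels.

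The 5 RG2833 values of Setd8 lay within 0.57 CPM of each other. Their SD of 0.223 CPM was smaller than the SD of 1.95 CPM that counting alone would give at these counts. Expressed as the squared deviations of the counts over their expected values, per degree of freedom (about 1 where counting is the only source of spread), the index for Setd8 was 0.0133 in the RG2833 group and 2.28 in the untreated group. Of the 11791 genes tested, 1 had a lower index in the RG2833 group, where the median was 2.60. The low spread was part of why Setd8 was picked, so this is a description. The estimated counts of Setd8 were whole numbers in all 10 libraries (within 0.005), as were those of the other genes except Ehmt2. RefSeq on GRCr8 lists 2 Setd8 pseudogenes, and how reads from such copies were assigned was not checked.

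**Figure D2:**
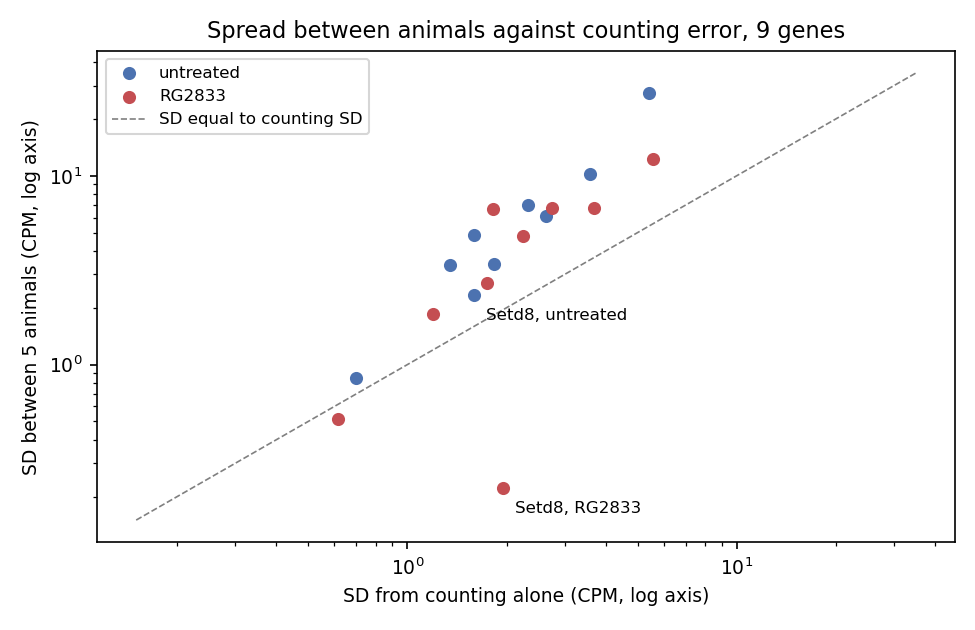
SD between the 5 animals of a group (vertical axis, CPM, log scale) against the SD that counting alone would give (horizontal axis, CPM, log scale), 1 point for each of the 9 genes in untreated (blue) and RG2833 (red) animals, with a dashed line where both are equal. Setd8 in RG2833 animals, at 0.223 against 1.95 CPM, lies farthest below the line, and Ezh2 in RG2833 animals is the only other point below it.

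The enzymes that act on the product of Setd8 did not pass the test. Suv420h1, which adds further methyl groups to H4K20, was 60.5 ± 5.88 CPM (SD, n = 5) in untreated and 65.98 ± 4.68 CPM in RG2833 animals, which on the log2 scale is 0.12 ± 0.08 (SE; adjusted p = 0.366 by edgeR). Suv420h2, its paralog, was 30.6 ± 6.85 and 35.2 ± 5.19 CPM, a log2 difference of 0.20 ± 0.15 (SE; adjusted p = 0.4400 by edgeR). Suv420h1 had 0.079 without untreated replicate 1. Suv420h2 had 0.12 without untreated replicate 3, 0.11 without untreated replicate 5 and 0.12 without RG2833 replicate 3. With the percentage at ribosomal RNA loci in the model Suv420h1 had 0.028 and Suv420h2 0.0078. With 1 surrogate variable, an estimated hidden factor, they had 0.021 and -0.11. The log2 ratio of Setd8 to Suv420h1 was between -1.45 and -1.05 in untreated and between -0.88 and -0.62 in RG2833 animals, without overlap. The ratio of Setd8 to Suv420h2 overlapped between the groups, from -0.60 to 0.01 against -0.15 to 0.44. Both ratios contain Setd8 and are descriptions.

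Across the other 8 histone methyltransferases, 0 passed an adjusted p under 0.05 in edgeR's quasi-likelihood test, where 5.08% of all genes did, and 1, Setd7, had an unadjusted p under 0.05, where 24.5% of all genes did. DESeq2, limma-voom and limma trend also called 0 of the 8. Log2 fold changes were above 0 for 4 genes and below 0 for 4, from -0.32 to 0.38, with a median of 0.02 against -0.00 over all genes tested. For each of these 8 genes the groups overlapped, against 7.27% of all genes that had no overlap. Transcript lengths were not used, so levels are compared between groups and not between genes.

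Setd7, which monomethylates H3K4 and several non-histone proteins, had the largest difference of the 8. It was 20.1, 20.6, 26.8, 31.3 and 28.1 CPM in untreated replicates 1 to 5 and 28.2, 29.3, 34.9, 28.8 and 43.8 CPM in RG2833 replicates 1 to 5. All RG2833 values lay above 4 of the 5 untreated values, untreated replicate 4 lay among them, and the highest RG2833 value was in replicate 5. The log2 fold change was 0.38 ± 0.15 (SE; 95% interval 0.04 to 0.71; unadjusted p = 0.0300, adjusted p = 0.156 by edgeR), and it was -0.03 with the percentage at ribosomal RNA loci in the model. With 1 surrogate variable the Setd7 value was 0.18. The spread of Setd7 was the widest of the 9 genes in either group, at 19.2% of the mean in untreated and 20.1% in RG2833 animals.

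Setd2, the enzyme of H3K36 trimethylation that travels with elongating RNA polymerase, was 62.3 to 76.6 CPM in untreated animals (median 70.5) and 66.7 to 84.4 CPM in RG2833 animals (median 76.9). The groups overlapped over most of their range. The log2 fold change was 0.15 ± 0.08 (SE, 95% interval -0.03 to 0.33, adjusted p = 0.287 by edgeR). It was -0.05 with the percentage at ribosomal RNA loci in the model and 0.035 with 1 surrogate variable.

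Of the H3K9 enzymes, Ehmt1 and Ehmt2 encode the partners GLP and G9a of one dimer, which places H3K9 mono- and dimethylation. Ehmt1 was 33.05 ± 3.40 CPM in untreated and 30.8 ± 2.70 CPM with RG2833 (n = 5, SD); on the log2 scale the difference was -0.10 ± 0.09 (SE; 95% interval -0.30 to 0.10; adjusted p = 0.526 by edgeR). Ehmt2 was 293 ± 27.3 and 315 ± 12.3 CPM, a log2 difference of 0.11 ± 0.08 (SE; 95% interval -0.06 to 0.27; adjusted p = 0.408 by edgeR). The point estimates of the partners had opposite signs, and both intervals included 0. Ehmt1 had -0.16 without untreated replicate 3 and -0.056 without untreated replicate 5, and Ehmt2 had 0.066 without untreated replicate 5. With the percentage at ribosomal RNA loci in the model the values were -0.23 for Ehmt1 and 0.18 for Ehmt2, and with 1 surrogate variable -0.17 and 0.027. The estimated counts of Ehmt2 were not whole in any library, as estimates are where reads match more than one annotated sequence.

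Suv39h1, which trimethylates H3K9 in pericentric heterochromatin, was 17.7, 17.8, 18.7, 12.9 and 22.3 CPM in untreated replicates 1 to 5. It was 17.2, 14.0, 15.5, 13.2 and 12.6 CPM in RG2833 replicates 1 to 5. Untreated replicate 4 alone of its group fell among the RG2833 values, and the other 4 untreated values were above all 5 of them. With all animals the log2 fold change was -0.30 ± 0.14 (SE; 95% interval -0.61 to 0.00; adjusted p = 0.208 by edgeR). Without untreated replicate 4 it was -0.40 and passed (adjusted p = 0.0483 by edgeR). That fit called 1556 genes of the whole table, against 599 with all animals. Over the 10 fits that left out 1 animal the edgeR adjusted p of Suv39h1 ran from 0.0483 to 0.375. The Suv39h1 value was -0.12 with the percentage at ribosomal RNA loci in the model and 0.00 with 1 surrogate variable. Setdb1, which trimethylates H3K9 at retroelements together with Trim28, was 53.4 ± 7.01 CPM in untreated and 50.97 ± 4.83 CPM with RG2833 (n = 5, SD); on the log2 scale the difference was -0.07 ± 0.10 (SE; 95% interval -0.28 to 0.15; adjusted p = 0.714 by edgeR). Leaving out 1 animal gave from -0.13 (without untreated replicate 1) to -0.014 (without untreated replicate 2). For Setdb1 the value was -0.015 with the percentage at ribosomal RNA loci in the model and -0.13 with 1 surrogate variable.

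**Figure D3:**
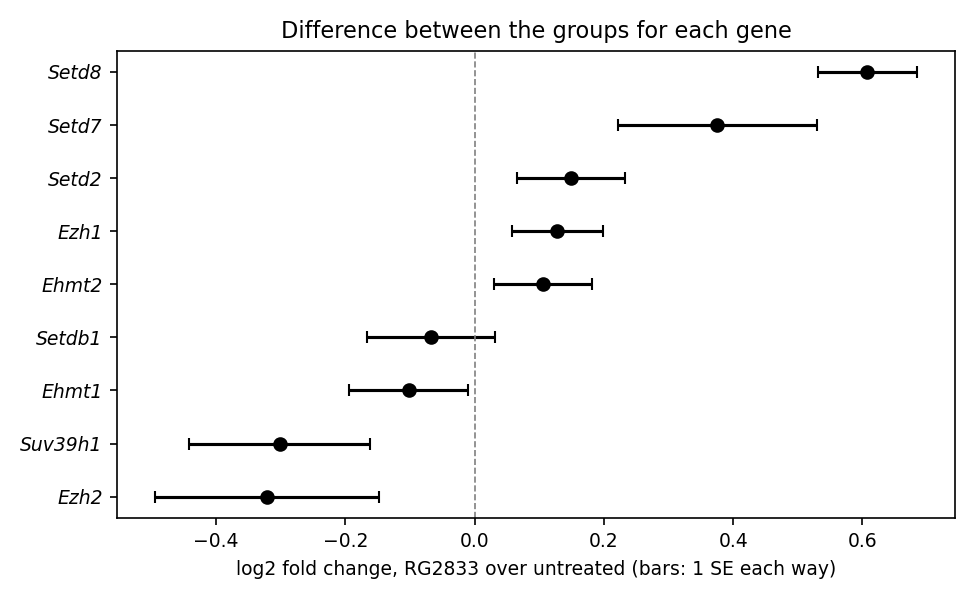
Log2 fold change of RG2833 over untreated animals (horizontal axis) for each of the 9 genes, with bars of 1 SE each way from the edgeR fit and a dashed line at 0. Setd8, at 0.61, lies farthest to the right, and Ezh2, at -0.32, farthest to the left.

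Ezh1 and Ezh2 are the alternative catalytic subunits of Polycomb repressive complex 2 (PRC2), which methylates H3K27. Ezh2 is known as the form of dividing cells and Ezh1 as the form of mature neurons. Ezh1 was 120, 117, 125, 126 and 143 CPM in untreated replicates 1 to 5 and 149, 136, 132, 141 and 133 CPM in RG2833 replicates 1 to 5. The groups overlapped through untreated replicate 5, and the log2 fold change was 0.13 ± 0.07 (SE; 95% interval -0.02 to 0.28; adjusted p = 0.279 by edgeR). Ezh2 had few reads, with 29 to 51 estimated counts per library. It was 5.49, 5.09, 3.43, 4.56 and 5.39 CPM in untreated and 4.197, 4.19, 2.997, 3.62 and 4.08 CPM in RG2833 replicates 1 to 5. Untreated replicate 3 lay within the RG2833 range, and the other 4 untreated values lay above it. The log2 fold change was -0.32 ± 0.17 (SE; 95% interval -0.70 to 0.05; adjusted p = 0.271 by edgeR).

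Within each library, the log2 ratio of Ezh1 to Ezh2 (pseudocount 0.5 CPM) depends little on library scaling. It is compared between the groups only, since it was not corrected for transcript length. The ratio was 4.33, 4.39, 5.00, 4.65 and 4.61 in untreated replicates 1 to 5 and 4.99, 4.86, 5.24, 5.10 and 4.87 in RG2833 replicates 1 to 5. Of the untreated animals, replicate 3 alone reached the RG2833 range. The mean was 4.60 ± 0.26 (SD, n = 5) in untreated and 5.01 ± 0.16 (SD, n = 5) in RG2833 animals, a difference of 0.42 (two-sided exact permutation test, p = 0.0317). After Benjamini-Hochberg adjustment over the 2 ratios tested the exact permutation p was 0.0635, so the difference did not pass. The excitatory neuron markers were higher in RG2833 animals without overlap, as given above, and 4 oligodendrocyte precursor markers, of which 0 passed and 0 were at 0, summed to 286 to 305 CPM without treatment against 230 to 301 CPM. The part of either list in the ratio was not tested. Over the 10 comparisons that left out 1 animal the unadjusted exact permutation p ran from 0.00794 to 0.0556. It was under 0.05 in 8 of them, and was 0.0556 without RG2833 replicate 3 and without RG2833 replicate 4.

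The log2 ratio of Ehmt1 to Ehmt2 was -3.13 ± 0.21 (SD, n = 5) in untreated and -3.34 ± 0.14 (SD, n = 5) in RG2833 animals. The difference of -0.21 did not pass (two-sided exact permutation test, p = 0.0952, adjusted p = 0.0952). Leaving out 1 animal gave an unadjusted exact permutation p from 0.0317 to 0.198, under 0.05 in 2 of 10 comparisons (without untreated replicate 3 and without RG2833 replicate 5), and the difference was -0.12 without untreated replicate 5. The smallest p that 5 animals against 5 allow is 0.00794.

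**Figure D4:**
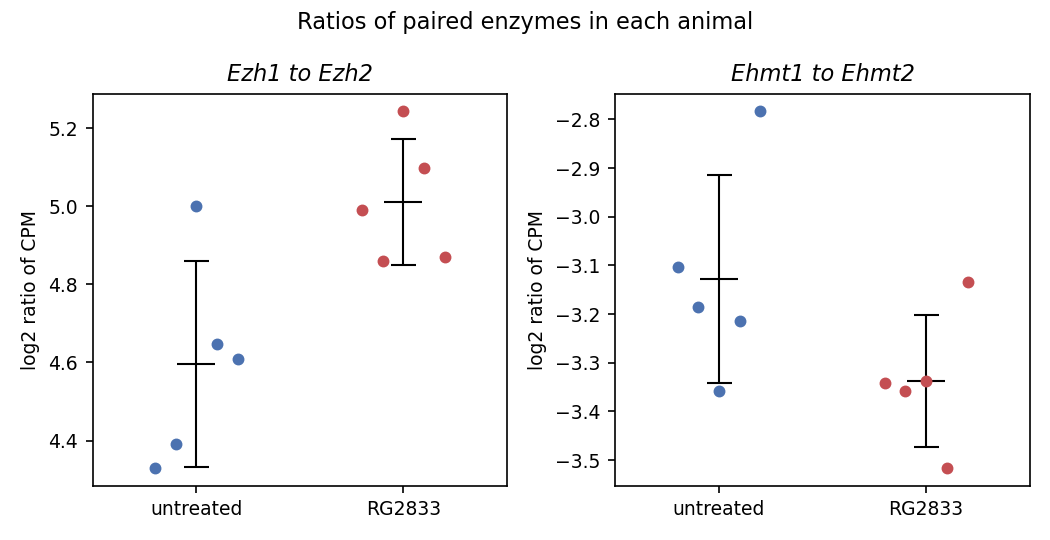
Log2 ratio of Ezh1 to Ezh2 (left) and of Ehmt1 to Ehmt2 (right) in each untreated (blue) and RG2833 (red) animal, replicates 1 to 5 from left to right, with the mean and SD in black. For Ezh1 to Ezh2 the mean is 4.60 in untreated and 5.01 in RG2833 animals, and untreated replicate 3, at 5.00, lies among the RG2833 points.

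The genes whose levels followed Setd8 most closely across the 10 animals were Prrt1, Rtn4r and Numbl. The measure was the mean absolute difference of log2 CPM after each gene was centred on its mean, and it was 0.06 for Prrt1, 0.07 for Rtn4r and 0.07 for Numbl, against a median of 0.33 over all genes. Prrt1, an AMPA receptor-associated protein of synapses, was 499 to 750 CPM without treatment and 818 to 873 CPM in RG2833 animals. Rtn4r, the Nogo receptor, was 98.2 to 137 and 149 to 185 CPM. Numbl, a relative of the Notch regulator Numb, was 81.8 to 116 and 145 to 165 CPM. Each of the 3 genes was highest among untreated animals in replicate 4, as Setd8 was. They were selected for likeness to Setd8 over all 10 animals, so this shared peak is built into the selection. For the same reason their differences between groups carry no test here.

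The enzymes and partners around these 9 genes were examined from lists of 93 genes that write, bind or remove histone methylation. Of the 71 tested, 5 passed an adjusted p under 0.05 (edgeR), 2 higher and 3 lower in RG2833 animals, where 2.41% of all genes were higher and 2.67% lower. The median log2 fold change was 0.04. The whole table's 599 calls became 98 to 1556 when single libraries were left out, and the count of 5 in these lists changed as well. It was 10 without untreated replicate 4, 7 without untreated replicate 5, 2 without untreated replicate 1, and 1 without untreated replicate 2 or RG2833 replicate 4. It was 0 without untreated replicate 3 and without RG2833 replicate 1, 2, 3 or 5. With the percentage at ribosomal RNA loci in the model it was also 0, and that model called 2 genes of the whole table. With library totals in place of TMM, the 5 genes called were all lower, and Carm1 and Wiz were not among them.

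Among the partners of H3K9 methylation, 2 of 6 passed, where 5.08% of all genes did. Cbx5, which encodes the H3K9 methylation reader HP1 alpha, was 33.1, 39.3, 34.8, 31.6 and 34.6 CPM in untreated and 27.3, 27.6, 27.1, 26.7 and 25.1 CPM in RG2833 replicates 1 to 5. The groups did not overlap, and Cbx5 fell by 0.37 ± 0.08 on the log2 scale (SE; adjusted p = 0.0237 by edgeR). Wiz, a zinc finger protein bound to Ehmt1 and Ehmt2, was 70.01, 75.6, 70.98, 71.5 and 71.1 CPM in untreated and 91.4, 79.6, 88.4, 80.2 and 86.1 CPM in RG2833 replicates 1 to 5. It rose by 0.24 ± 0.06 on the log2 scale (SE; adjusted p = 0.0426 by edgeR). With the percentage at ribosomal RNA loci in the model the Cbx5 value was -0.17. The call of Cbx5 held in 4 and that of Wiz in 2 of the 10 fits that left out 1 animal. Cbx3, the gene of HP1 gamma, had a log2 fold change of -0.29 ± 0.08 just outside the threshold (adjusted p = 0.0502 by edgeR); it was named after its value was seen. Cbx3 did pass in DESeq2's Wald test, limma-voom and limma trend, and in edgeR with library totals or with a mean count of at least 50.

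Of the 3 other H3K9 methyltransferases tested, 1 passed, where 5.08% of all genes did. Mecom, a zinc finger factor reported to have H3K9 methyltransferase activity, was 4.46, 5.59, 7.69, 6.42 and 4.34 CPM in untreated and 3.05, 3.84, 3.20, 3.00 and 3.35 CPM in RG2833 replicates 1 to 5. The groups did not overlap, and it fell by 0.80 ± 0.19 on the log2 scale (SE; adjusted p = 0.0350 by edgeR), a call that held in 3 of the 10 fits that left out 1 animal. The Mecom value was -0.42 with the percentage at ribosomal RNA loci in the model. Vascular markers, a list of 6 genes of which 0 passed and 0 were at 0, summed to 216 to 317 CPM without treatment and 205 to 222 CPM in RG2833 animals, and their part in this difference was not tested.

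Of the 7 PRC2 subunits tested beside Ezh1 and Ezh2, 1 passed, where 5.08% of all genes did. The log2 fold changes of the 7 ran from -0.42 to -0.00, with a median of -0.12, while of all genes 5963 of 11791 were below 0. Rbbp4, a histone-binding subunit shared with deacetylase complexes, was 85.3, 86.9, 87.3, 82.5 and 85.7 CPM in untreated replicates 1 to 5. It was 66.5, 67.1, 67.7, 79.1 and 66.3 CPM in RG2833 replicates 1 to 5. RG2833 replicate 4 stood apart from the other 4 and was still below all untreated values. Rbbp4 fell by 0.30 ± 0.07 on the log2 scale (SE; adjusted p = 0.0272 by edgeR). Without RG2833 replicate 4 the log2 fold change was -0.36, and with the percentage at ribosomal RNA loci in the model it was -0.28 ± 0.14 (SE). The call held in 3 of the 10 fits that left out 1 animal. The other 6 did not pass.

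Of the 8 arginine methyltransferases, 1 passed, where 5.08% of all genes did. Carm1, a coactivator that methylates arginines of histone H3, was 111, 118, 114, 121 and 122 CPM in untreated and 140, 141, 132, 142 and 129 CPM in RG2833 replicates 1 to 5. The groups did not overlap, and it rose by 0.23 ± 0.06 on the log2 scale (SE; adjusted p = 0.0483 by edgeR). The call held in 2 of the 10 fits that left out 1 animal, and with DESeq2 size factors the edgeR adjusted p was 0.0539. With the percentage at ribosomal RNA loci in the model the Carm1 value was 0.26 ± 0.12 (SE).

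In the remaining lists 0 genes passed in edgeR with TMM scaling and the standard filter, and DESeq2's Wald test called 2, Pcna and Kdm6b (adjusted p = 0.0209 and 0.0267 by DESeq2). Of 11 listed H3K4 methyltransferases other than Setd7 and Setd1a, 6 were tested, with log2 fold changes from -0.21 (Smyd3) to 0.23 (Smyd1). Kmt2a, Kmt2b, Kmt2c, Kmt2d and Setd1b of that list were not analysed here. Smyd1 rested on 10 to 27 counts per library, and it had 0.10 without RG2833 replicate 2, 0.37 without RG2833 replicate 3, 0.089 without RG2833 replicate 4 and 0.52 with the percentage at ribosomal RNA loci in the model. The 5 tested H3K36 methyltransferases other than Setd2 had log2 fold changes from 0.03 to 0.36 (Setmar), with 0.16 ± 0.14 for Whsc1l1, and of all genes 5828 of 11791 were above 0. Setmar had 0.24, 0.23 and 0.55 without untreated replicates 2, 3 and 4, and Whsc1l1 had 0.090 without untreated replicate 1 and 0.072 without RG2833 replicate 5. With the percentage at ribosomal RNA loci in the model the signs turned for Smyd3 (0.12), Setmar (-0.48) and Whsc1l1 (-0.15), and with 1 surrogate variable for Whsc1l1 (-0.018). The H3K79 methyltransferase Dot1l had a log2 fold change of 0.46 ± 0.18 (SE; adjusted p = 0.132 by edgeR), and it passed without untreated replicate 4 (0.60, adjusted p = 0.0369 by edgeR). For Dot1l the value turned to -0.16 with the percentage at ribosomal RNA loci in the model and was 0.07 with 1 surrogate variable. Of the 10 tested subunits of COMPASS, the complex around the H3K4 methyltransferases, Dpy30 had -0.32 ± 0.12 (adjusted p = 0.126 by edgeR) and Rbbp5 0.18 ± 0.06 (adjusted p = 0.112 by edgeR). Rbbp5 had groups that did not overlap, and Dpy30 passed without untreated replicate 4 (-0.41, adjusted p = 0.0246 by edgeR). In the models with the ribosomal RNA percentage and with 1 surrogate variable, Dpy30 had -0.034 and -0.066, and Rbbp5 had 0.11 and 0.12. Among the 16 demethylases, the H3K27 demethylase Kdm6b had 0.45 ± 0.13 (adjusted p = 0.0694 by edgeR) and the demethylase Phf8 0.26 ± 0.11 (adjusted p = 0.182 by edgeR). Kdm6b passed without untreated replicate 4 (0.56, adjusted p = 0.00971 by edgeR). That fit, in which Dot1l and Dpy30 also passed, called 1556 genes of the whole table, against 599 with all animals. In the models with the ribosomal RNA percentage and with 1 surrogate variable, Kdm6b had 0.11 and 0.20, and Phf8 had 0.088 and 0.093.

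Genes that read H4K20 methylation or control the turnover of the Setd8 protein were also listed. Of the 7 tested, 0 passed in edgeR with TMM scaling and the standard filter and 5 had an unadjusted p under 0.05, against 24.5% of all genes, while 1 of them, Pcna, was called by DESeq2's Wald test and by edgeR with library totals (adjusted p = 0.0495) or a mean count of at least 50 (adjusted p = 0.0454). Pcna, the replication clamp that directs Setd8 to degradation, was 30.2, 28.7, 25.95, 29.1 and 23.4 CPM in untreated and 22.2, 23.1, 21.8, 21.8 and 22.1 CPM in RG2833 replicates 1 to 5. The groups did not overlap, and the log2 fold change of -0.31 ± 0.09 (SE) missed the threshold (adjusted p = 0.0579 by edgeR). Without untreated replicate 5 it was -0.36 and passed (adjusted p = 0.0208 by edgeR). That fit called 902 genes of the whole table, against 599 with all animals. Skp2, a ubiquitin ligase subunit, was 6.33 ± 0.998 and 4.48 ± 0.760 CPM (n = 5, SD); on the log2 scale the difference was -0.50 ± 0.16 (SE; adjusted p = 0.0905 by edgeR). Hdac1 and Hdac3, which encode the targets of RG2833, had log2 fold changes of -0.13 ± 0.08 (adjusted p = 0.329 by edgeR) and -0.12 ± 0.07 (adjusted p = 0.325 by edgeR), in that order. With the percentage at ribosomal RNA loci in the model they had -0.14 and -0.011.

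**Figure D5:**
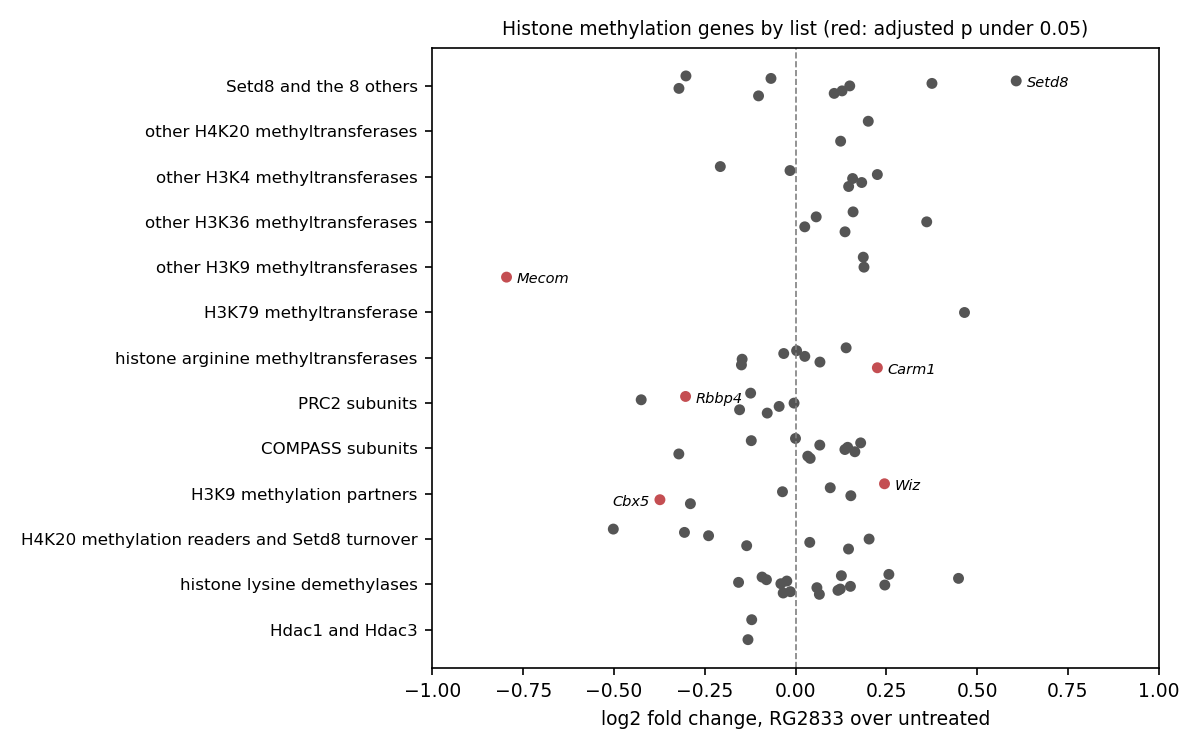
Log2 fold change of RG2833 over untreated animals (horizontal axis) for each gene, 1 point per gene, grouped by list (vertical axis). Red points passed an edgeR adjusted p under 0.05 (Cbx5, Mecom, Rbbp4, Carm1 and Wiz), grey points did not, and Setd8 was not tested.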

How the data were processed

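Hippocampal mRNA of 10 rats was measured by RNA-seq. The authors deposited RSEM estimated counts (expected counts, not normalized) and a normalized signal (TMM-scaled CPM). The submitters' processing notes name bcl2fastq 2.17, Bowtie2 2.1.0, RSEM 1.2.15, edgeR and the rn6 build, and the labels' protocols a stranded mRNA kit. The annotation is not given in the sources used here.

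Counts were rounded to whole numbers, filtered with filterByExpr (11791 of 17168 genes kept) and tested with edgeR 4.0.16 (R 4.3.3): TMM scaling, quasi-likelihood test, 5 against 5, no covariate, Benjamini-Hochberg adjustment over all tested genes, threshold 0.05. CPM printed here come from this fit and differ from the deposited signal by at most 0.701%. The floor of 3 counts was 0.268 to 0.343 CPM and covers counting error only. The SE is the log2 fold change over the root of F. Tests were tried on simulated counts. Within-group pairs of libraries differed by more than sampling noise (chi-square per degree of freedom 4.72 to 38.1). Alternatives used DESeq2 1.42.0, limma 3.58.1 and sva 3.50.0.

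The members and lists were chosen with earlier results of these data known. Genes named were the 9 genes, both Suv420h genes, Hdac1, Hdac3, each list's called genes or otherwise its 2 largest log2 fold changes, and the 3 genes most like Setd8.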

Additional observations from a re-analysis of the deposited data

Results flagged for a closer look

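Dixon's 95% limit of 0.71 (the gap to the nearest value over the whole range) was applied to 68 groups of 5 animals, of which chance alone passes about 3.4. It was passed by 2. For Rbbp4, RG2833 replicate 4 had 79.1 CPM, while the other RG2833 animals had 66.3 to 67.7 CPM (0.893). For Wiz, untreated replicate 2 had 75.6 CPM, while the remaining untreated animals had 70.01 to 71.5 CPM (0.737).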

How the results depend on the processing

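All alternatives were planned ones. The 599 genes called over the whole table became 1295 with DESeq2's Wald test, 1466 at an adjusted p under 0.1, 180 with the replicate block, 2 with ribosomal RNA share as covariate, 5 with 1 surrogate variable, and 98 (without RG2833 replicate 5) to 1556 (without untreated replicate 4) without 1 animal, each animal moving it by over 1.5 times. Of the 8 tested methyltransferases 0 were called under every alternative except without untreated replicate 4 (Suv39h1), a range of 0 to 1. The 5 called genes of the wider lists became 3 without a filter, 8 with DESeq2's Wald test, 11 at an adjusted p under 0.1, 0 with the replicate block, 0 with the ribosomal RNA share, 0 with 1 surrogate variable, and 0 to 10 without 1 animal. Setd8 had a log2 fold change of 0.47 with the ribosomal RNA share, 0.49 with 1 surrogate variable, 0.58 to 0.67 without 1 animal, and 0.59 to 0.61 otherwise. The cause of these shifts was not tested.

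With the ribosomal RNA share, the log2 fold change turned to -0.053 ± 0.16 (SE) for Setd2, -0.033 ± 0.29 for Setd7 and 0.12 ± 0.21 for Smyd3. It also turned to -0.48 ± 0.39 for Setmar, -0.15 ± 0.26 for Whsc1l1 and -0.16 ± 0.29 for Dot1l. That share did not overlap between the groups, so share and treatment are hard to tell apart in this model. With 1 surrogate variable the log2 fold change turned to 0.0037 ± 0.15 (SE) for Suv39h1, -0.11 ± 0.15 for Suv420h2 and -0.018 ± 0.17 for Whsc1l1. None of these passed in the main test. Ezh2, Smyd1, Setmar and Mecom have no value at a mean count of at least 50.

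Without 1 animal, the Ezh1 to Ezh2 difference ran from 0.35 to 0.52 and that of Ehmt1 to Ehmt2 from -0.27 to -0.12. Same-numbered animals are different rats, and their deviations correlated by -0.066 on average (-0.32 to 0.15), so the numbers did not pair them. With labels exchanged only within numbers (replicate block), the Ezh difference of 0.42 had an exact permutation p of 0.0625, the smallest that 5 pairs allow. Of the 5 untreated animals, 1 correlated best with its own number.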
